A study of Homo sapiens with 4 samples.

Results

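Several human miRNAs are encoded inside genes that run hepatic metabolism, and 5 of them were followed here in HepG2 cells treated with berberine: hsa-miR-103 and hsa-miR-107, from the pantothenate kinase genes, hsa-miR-33a and hsa-miR-33b, from the sterol regulatory element-binding protein genes, and hsa-miR-378, from the gene of the coactivator PGC-1 beta. They were chosen by name, as the guide-named miRNAs of these host genes, out of the 851 human miRNAs listed on the array; the rule uses their names and host genes. HepG2 is a human liver tumour line, which the study describes as hepatocellular carcinoma, and berberine is an isoquinoline plant alkaloid. The study compared cells given 40 µM berberine chloride with cells given 0.08% DMSO, after 2 h and after 4 h, on 1 single-colour Agilent miRNA array per condition, 4 arrays in all. The DMSO content of the berberine cultures is not in their own labels, although the berberine stock was made in DMSO. With 1 culture per condition there was no replicate spread at either time, so no p-value is given for a single time. The errors printed below are those of the scanner software and cover the measurement on an array, not the difference between cultures. In whole-culture RNA, fewer cells carrying a miRNA and less of it per cell cannot be told apart.

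A miRNA that lies within a protein-coding gene on the same strand is commonly transcribed along with it, and is then cut from the transcript by Drosha and Dicer. Pantothenate kinases carry out the first committed step of coenzyme A synthesis. SREBF2 encodes the transcription factor SREBP-2, which drives cholesterol synthesis and uptake, and SREBF1 encodes SREBP-1, which drives fatty acid synthesis. PPARGC1B encodes PGC-1 beta, a coactivator of mitochondrial and lipid genes. In the liver, miR-33a and miR-33b are known for repressing the cholesterol exporter ABCA1, miR-103 and miR-107 for effects on insulin sensitivity, and miR-378 for effects on mitochondrial metabolism. Messenger RNA of the host genes was not analysed here.

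The mature sequences are shown because they set which of these miRNAs are near-identical on an array and which share a seed. They are the RefSeq entries on GRCh38.p14, written 5′ to 3′ with the seed, bases 2 to 8, in capitals. The seed is the stretch that pairs with a target message. The 5 miRNAs carried 3 different seeds.
hsa-miR-103: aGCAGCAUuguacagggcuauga
hsa-miR-107: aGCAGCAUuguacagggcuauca
hsa-miR-33a: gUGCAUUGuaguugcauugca
hsa-miR-33b: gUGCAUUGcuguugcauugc
hsa-miR-378: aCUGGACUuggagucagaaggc

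With positions counted from 1 at the 5′ end of the first miRNA of a pair, miR-103 and miR-107 differ by the single substitution G22C and were identical at 22 of 23 bases. For miR-33a against miR-33b, the substitutions were U9C and A10U over the 20 bases they have in common, and miR-33a is longer by 1 base at its 3′ end. The miR-378 seed was shared on this array by 1 other miRNA, hsa-miR-422a, which differs from miR-378 by G10A and A12G. The share of one miRNA's signal that came from its near-identical partner was not tested.

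The hairpins were placed by the RefSeq table on GRCh38.p14, while the array files give no coordinates of their own. A pair of hairpin genes yields the identical mature miR-103, so that the signal cannot be divided between them: MIR103A1 at chr5:168560896-168560973, minus strand, inside PANK3, and MIR103A2 at chr20:3917494-3917571, plus strand, inside PANK2. MIR107 lies at chr10:89592747-89592827, minus strand, inside PANK1. MIR33A lies at chr22:41900944-41901012, plus strand, inside SREBF2, and MIR33B at chr17:17813836-17813931, minus strand, inside SREBF1. MIR378A lies at chr5:149732825-149732890, plus strand, inside PPARGC1B. All 6 hairpins had the strand of their host gene. The table gives no exon boundaries, so whether each lies in an intron was not determined here. By contrast, MIR422A at chr15:63870930-63871019, minus strand, lay inside no protein-coding gene of the table.

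Of the 5 miRNAs, 4 were detected on all 4 arrays and 1, miR-33b, on none. The arrays detected 235 human miRNAs in control cells at 2 h, 199 in berberine cells at 2 h, 226 in control cells at 4 h and 242 in berberine cells at 4 h, and 197 were detected on all 4. Array brightness differed: the 75th percentile of the total signal over those 197 miRNAs was 243 in control and 169 in berberine cells at 2 h, and 225 and 297 at 4 h. For this reason ratios between arrays are given on the log2 scale after subtracting that percentile from each array, and are called scaled. Without scaling, the median of the 197 miRNAs was itself at −0.55 (log2) at 2 h and 0.51 at 4 h, against −0.02 and 0.11 after it. All 4 arrays were on 1 slide and had no saturated spots. The liver-derived label of the cells was checked against 4 hepatocyte miRNAs, miR-122, miR-192, miR-194 and miR-885-5p, and all were detected on all 4 arrays. Their signals were 821 to 1565 for miR-192, 498 to 931 for miR-194 and 28.5 to 58.0 for miR-885-5p. For miR-122 they were 22.4 to 39.9, no brighter than the fibroblast miRNA miR-145 at 19.7 to 42.3. Of 4 muscle miRNAs none was detected, 2 of 4 haematopoietic miRNAs were detected on 1 array each, with a summed signal of 11.4 in berberine cells at 4 h and 0 elsewhere, and of the fibroblast pair miR-145 was detected on all 4 arrays and miR-143 on 1. The summed signal of the fibroblast pair was between 19.7 and 46.2, and the part of such cells in the results was not tested.

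Both pantothenate kinase miRNAs differed by less than their error between any of the compared arrays once these were scaled. The total signal of miR-103 was 1300 ± 97.8 (error of the scanner software) in control cells and 884 ± 66.0 in berberine cells at 2 h, and 1134 ± 84.6 and 1594 ± 119 at 4 h. Unscaled, the lowest of the 4 values was thus that of berberine cells at 2 h and the highest that of berberine cells at 4 h, in the same order as the array percentiles. Once scaled, the 4 arrays lay within 0.092 on the log2 scale. The log2 ratio of berberine to control was −0.03 (SE 0.15; 95% interval −0.33 to 0.27) at 2 h and 0.09 (SE 0.15; −0.21 to 0.39) at 4 h. In control cells, the 4 h array differed from the 2 h array by −0.09 (SE 0.15).

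For miR-107 the total signal was 996 ± 77.3 in control and 711 ± 55.6 in berberine cells at 2 h, and 909 ± 71.4 and 1291 ± 100.2 at 4 h. The arrays fell in the same order as for miR-103, and the scaled values spanned 0.11 on the log2 scale. Its ratio was 0.04 (SE 0.16; −0.27 to 0.35) at 2 h and 0.11 (SE 0.16; −0.21 to 0.42) at 4 h, and the control arrays differed by −0.02 (SE 0.16). The change in miR-103 minus the change in miR-107 was −0.07 (SE 0.22; −0.50 to 0.36) at 2 h and −0.01 (SE 0.22; −0.45 to 0.42) at 4 h. Both intervals contain 0, which does not show that the miRNAs moved alike.

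Each of these miRNAs was read by 2 probes of 8 spots, which gave separate values within the array. The ratio of miR-103 was −0.05 and 0.02 by its probes 1 and 2 at 2 h, and 0.08 and 0.12 at 4 h. For miR-107 the probes gave −0.0025 and 0.06 at 2 h, and 0.18 and 0.08 at 4 h. The standard error of each of these probe ratios was 0.20, so none was distinguishable from no change. Spots of a probe agreed far more closely than that error: their coefficient of variation was 1.48% to 8.36% for miR-103 and 0.759% to 8.04% for miR-107. By spot spread alone, the scaled ranges of probe 2 of miR-107 did not overlap between control and berberine at 2 h or at 4 h, the control being lower both times by a log2 difference of at most 0.08 between the means. Spots of 1 array share 1 RNA sample, and their spread does not include that between cultures.

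**Figure D1:**
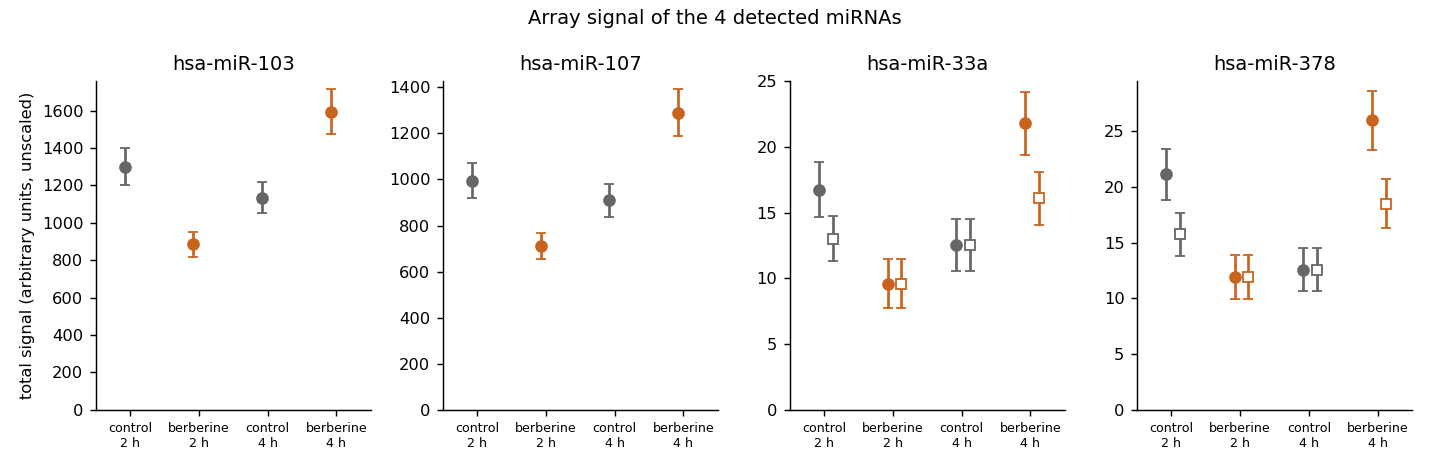
Total signal, in unscaled arbitrary units, of the 4 detected miRNAs on the control (grey) and berberine (orange) arrays; filled circles are the total signal, open squares the signal of the probe detected on all 4 arrays where the probes differed, and bars 1 error of the scanner software. The berberine array is lowest at 2 h and highest at 4 h for each miRNA, as for the array percentiles, from 884 to 1594 for miR-103 and from 9.59 to 21.8 for miR-33a.

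The SREBF2 miRNA, miR-33a, was dim, and its ratio depended on which probes the software counted. Its total signal was 16.7 ± 2.09 in control and 9.59 ± 1.85 in berberine cells at 2 h, and 12.5 ± 1.95 and 21.8 ± 2.40 at 4 h. The ratio of berberine to control was −0.28 (SE 0.33; −0.93 to 0.37) at 2 h and 0.40 (SE 0.27; −0.14 to 0.94) at 4 h, and that of the control arrays, 4 h over 2 h, was −0.31 (SE 0.29). All 3 intervals contain 0. The total signal is the sum of those probes that exceed 3 times their own error. Probe 2 of miR-33a passed that limit on all 4 arrays, at 5.20 to 8.05 times its error. Probe 1 passed in control cells of 2 h, at 3.13 times its error, and in berberine cells of 4 h, at 4.30 times. It failed in berberine cells of 2 h and control cells of 4 h, at 0.844 and 1.49 times. With probe 2 alone, the ratio was 0.08 (SE 0.34) at 2 h, −0.04 (SE 0.29) at 4 h and 0.05 (SE 0.29) between the control arrays.

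For miR-378, the PPARGC1B miRNA, the ratio at 4 h was the only one of the 8 berberine ratios to lie beyond its error. It did not do so on 1 probe. The ratio was below 0 (−0.34) under normexp, whose added offset of 50 exceeds every mean spot signal of miR-378 (at most 36.1). The total signal was 21.1 ± 2.30 in control and 11.9 ± 1.98 in berberine cells at 2 h, and 12.6 ± 1.94 and 26.0 ± 2.61 at 4 h. The arrays that were high, control at 2 h and berberine at 4 h, were the same as for miR-33a. The ratio was −0.30 (SE 0.29; −0.86 to 0.26) at 2 h and 0.65 (SE 0.27; 0.13 to 1.17) at 4 h, which is 1.57-fold. Without scaling it was 2.07-fold at 4 h. In cells that had no berberine, the ratio of the 4 h array to the 2 h array was −0.64 (SE 0.27; −1.17 to −0.11), about as far from 0 as the berberine ratio at 4 h. Those ratios share the control array of 4 h.

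Here too a single probe came and went. Probe 2 of miR-378 passed the limit on every array, at 6.03 to 8.40 times its error. Probe 1 passed in control cells of 2 h and berberine cells of 4 h, at 4.33 and 5.34 times its error, and fell short on the berberine array at 2 h and the control array at 4 h, at 2.77 and 2.65 times. With probe 2 alone the ratio was 0.13 (SE 0.30) at 2 h, 0.16 (SE 0.28) at 4 h and −0.21 (SE 0.28) between the control arrays, all within their errors. For miR-103 and miR-107 both probes passed on all arrays, at 9.95 to 10.0 times their error, and their ratios are the same by this measure.

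**Figure D2:**
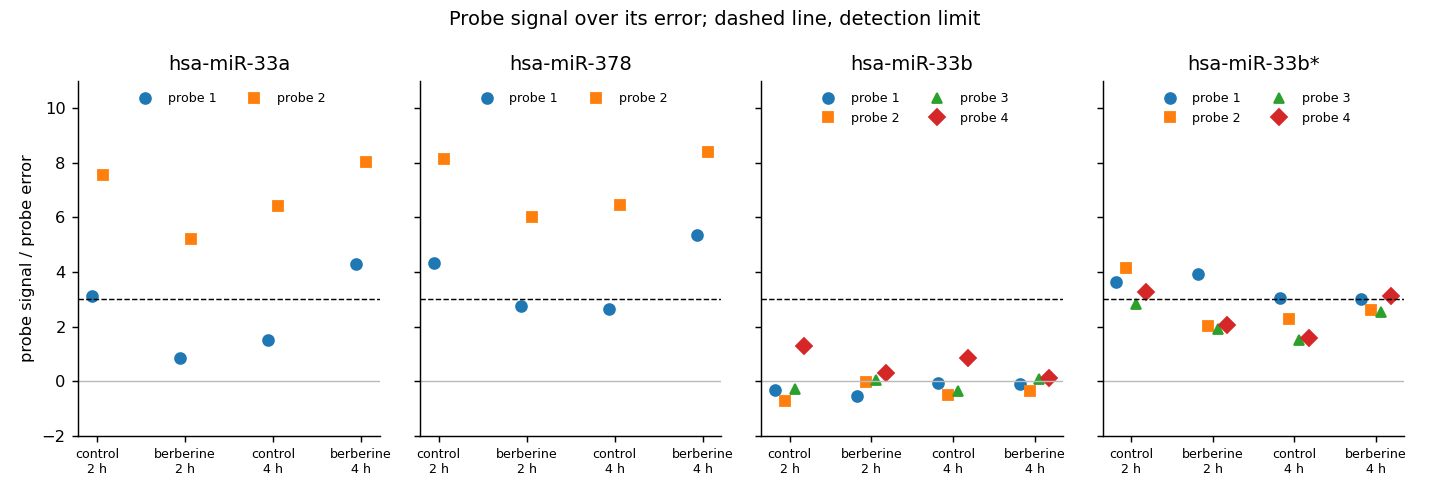
Probe signal divided by its own error for each probe of miR-33a, miR-378, miR-33b and miR-33b* on the 4 arrays; the dashed line at 3 is the limit above which a probe enters the total signal. Probe 1 of miR-33a and of miR-378 lies above the line on the control array at 2 h and the berberine array at 4 h only, and no probe of miR-33b reaches it.

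Probes that entered on only 1 array of a pair were also found among other miRNAs. In all, the probes counted differed for 32 of 197 miRNAs (16.2%) at 2 h, 37 of 218 (17.0%) at 4 h and 35 of 219 (16.0%) between the control arrays. The median size of the log2 ratio, regardless of sign, was 0.33, 0.49 and 0.62 where the probes differed, and 0.07, 0.14 and 0.09 where they were the same. Where the probes differed, it was 0.13, 0.16 and 0.09 on the probes that passed on all arrays, for miRNAs with such a probe. Signal level was not matched between these sets.

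The SREBF1 miRNA, miR-33b, was not detected on any array, and no fold is given for it. Its 4 probes of 4 spots gave signals from −0.43 to 0.73, against a limit of 3 errors that lay at 1.68 to 1.71 in control and 2.36 to 2.37 in berberine cells at 2 h, and at 2.21 to 2.25 and 1.77 to 1.78 at 4 h. The highest ratio of a probe's signal to its error was 1.27, on the control array at 2 h. A miR-33b signal below these limits was not detectable at this signal over background, which does not show that the miRNA is absent.

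The other arms of the hairpins gave a different picture for MIR33B. Its opposite arm, named hsa-miR-33b* on the array and miR-33b-3p now, was marked detected on all 4 arrays. The sequence is shown because this arm was read while the guide-named arm was not.
hsa-miR-33b*: cAGUGCCUcggcagugcagccc

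Its total signal was 6.67 ± 1.05 in control and 3.37 ± 0.861 in berberine cells at 2 h, and 2.36 ± 0.776 and 3.84 ± 0.881 at 4 h, from 3, 1, 1 and 2 of its 4 probes. Signals stood at 1.50 to 4.16 times the error over all probes and arrays, on both sides of the limit. The ratio was −0.46 (SE 0.43) at 2 h and 0.30 (SE 0.58) at 4 h, while the control arrays differed by −1.39 (SE 0.52), which is past 2-fold. On the 1 probe that passed on all arrays these became 1.16 (SE 0.54), −0.73 (SE 0.67) and 0.23 (SE 0.62), so that every sign turned. The value at 2 h was then past 2-fold, at 2.23-fold. At most 1 of the 4 spots of any miR-33b* probe was well above background on an array, so these readings lie near the floor. Neither hsa-miR-33a* nor hsa-miR-378*, the other arms of MIR33A and MIR378A, was detected on any array, with probe signals of at most 1.08 and 1.70 times their error. The seed partner miR-422a was not detected either, at most at 0.52 times its error.

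A last neighbour in sequence is hsa-miR-103-as, which is read from the opposite strand of both miR-103 hairpins and is the exact reverse complement of miR-103 over 23 bases.
hsa-miR-103-as: uCAUAGCCcuguacaaugcugcu

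It was detected on no array, its probes reaching at most 0.69 times their error, while miR-103 on the other strand was detected on every one.

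Taking the 4 detected miRNAs as a group, none passed 2-fold at either time. The 2-fold boundary is the one in the methods of the study. At 2 h, 1 ratio was above 0 and 3 were below, with a median of −0.15 beside −0.02 over all 197 miRNAs with a ratio, of which 1.02% were past 2-fold. At 4 h, all 4 were above 0, and the 4 had a median of 0.25 beside 0.11 over 218 miRNAs, of which 0.917% were past 2-fold. A ratio above 0 at 4 h was common: of the 197 miRNAs detected on all arrays, 96 had it at 4 h only and 46 at both times. The signs of the 4 members at 4 h rested on the processing. With arrays scaled to their median, miR-103 and miR-107 lay at −0.08 and −0.07. They were below 0 also by the brightest probe, the mean of all probes and an offset background correction (normexp). In miR-33a the ratio at 4 h was −0.14 by the brightest probe, −0.29 by the mean of all probes and −0.48 by normexp, and in miR-378 it was 0.05, 0.14 and −0.34. The normexp offset of 50 is above every mean spot signal of both, at most 31.4 and 36.1, so their signs under normexp decide nothing. Between the control arrays all 4 were below 0, although miR-103 and miR-107 lay at 0.13 and 0.19 with arrays scaled to their median and miR-33a at 0.05 on the same probe, 0.18 by the brightest probe and 0.30 by the mean of all probes, and the 4 had a median of −0.20 beside −0.08 over 219 miRNAs, of which 2.28% were past 2-fold. With the same probes on all arrays, the 3 medians were 0.06, 0.10 and −0.05. The median at 4 h was below 0 by the brightest probe (−0.027), by the mean of all probes (−0.088) and by normexp (−0.18). Beyond the 95% interval of their error lay 0 of 4 at 2 h, where 9.14% of all miRNAs did, 1 of 4 at 4 h, where 11.5% did, and 1 of 4 between the control arrays, where 6.85% did. The 1 was miR-378 both times. With the spread between spots as the error, 3 of 4 lay beyond it at 2 h, where 56.9% of all miRNAs did, and 4 of 4 at 4 h, where 67.4% did.

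**Figure D3:**
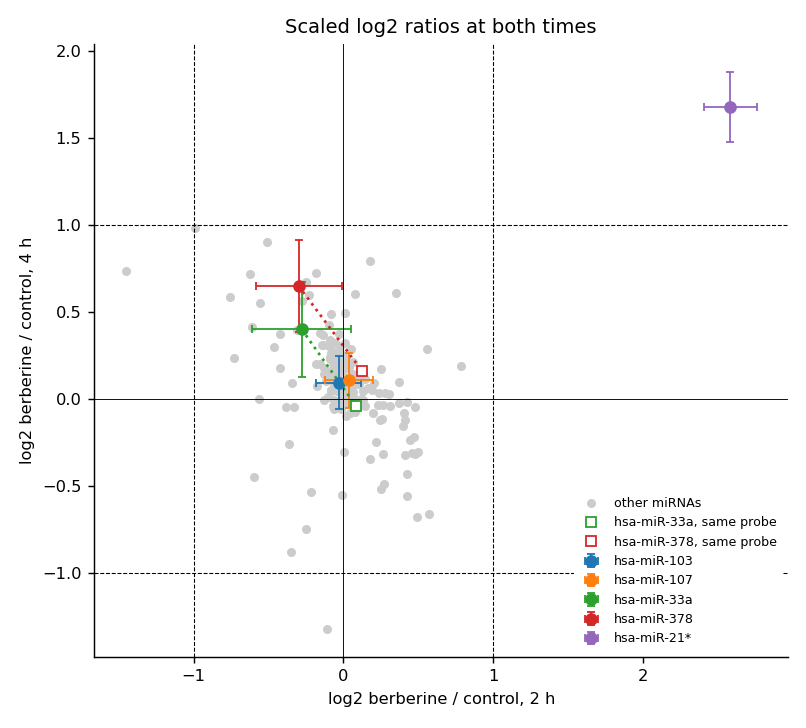
Scaled log2 ratio of berberine to control at 2 h (horizontal) and 4 h (vertical) for the miRNAs detected on all 4 arrays, with the 4 detected members and miR-21* in colour; bars are 1 SE, open squares the value on the same probe, and dashed lines mark 2-fold. On the same probe miR-378 moves from −0.30 and 0.65 to 0.13 and 0.16, and miR-33a from −0.28 and 0.40 to 0.08 and −0.04.

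Over both times, limma was fitted over the 197 miRNAs with the treatment and the time point as terms, and none of the 4 was called. The log2 ratio of berberine to control was 0.03 (SE 0.21) for miR-103, 0.07 (SE 0.21) for miR-107, 0.06 (SE 0.21) for miR-33a and 0.18 (SE 0.22) for miR-378, each with a Benjamini-Hochberg adjusted p of 0.997 from limma. Unadjusted, the smallest limma p of the 4 was 0.419, for miR-378, and 9 of the 197 miRNAs had an unadjusted p under 0.05. The fit called 1 miRNA, 0.508% of those tested. That was hsa-miR-21*, the miRNA the study turned on, with scaled ratios of 2.59 (SE 0.18) at 2 h and 1.68 (SE 0.20) at 4 h. Without scaling its ratios were 2.06 and 2.08. The paper also reports a rise of this miRNA by qRT-PCR, in independent experiments. The limma call of miR-21* was lost in 11 of the 16 alternatives that tested it. Among them were arrays scaled to their median, quantile normalization and the fit without the time point. In those 11 its limma adjusted p was at least 0.0676. Its limma ratio there was 0.88 with normexp and 4.48 with the percentile over every human miRNA listed. In the rest of the 11 it was 1.67 to 2.14, beside 2.13 in the main fit. Of those 16 alternatives, 1 repeated the main values and could not lose the call. The fit has 1 residual degree of freedom, with the times standing in for replicates. Its variances came mostly from all the miRNAs together, with 54.2 prior degrees of freedom, and the p-values rest on that. A change seen at 1 time only is averaged with the other time, and it hardly widens the error of its own miRNA.

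Of the 197 miRNAs, the ratio had opposite signs at the 2 times for 133 (67.5%), and 96 were lower at 2 h and higher at 4 h, as miR-103, miR-33a and miR-378 were. The miRNAs with a 4-array profile most like that of miR-103 were miR-15a, miR-331-3p and miR-25, with a root mean square difference of 0.01 (log2) each after centring. For miR-107 they were miR-15b, miR-199b-5p and miR-221, at 0.01, 0.02 and 0.02. Among 196 miRNAs compared, miR-107 was 22nd in likeness to miR-103, and miR-103 was 14th in likeness to miR-107. For miR-33a they were miR-182, miR-30b and miR-335, at 0.06 to 0.07, and for miR-378 miR-502-3p, miR-193a-3p and miR-532-3p, at 0.02 to 0.06. On the same probes none of the last 6 was still among the nearest 3, which were miR-30d, miR-7 and miR-122 for miR-33a and miR-193b, miR-423-5p and miR-320a for miR-378.

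**Figure D4:**
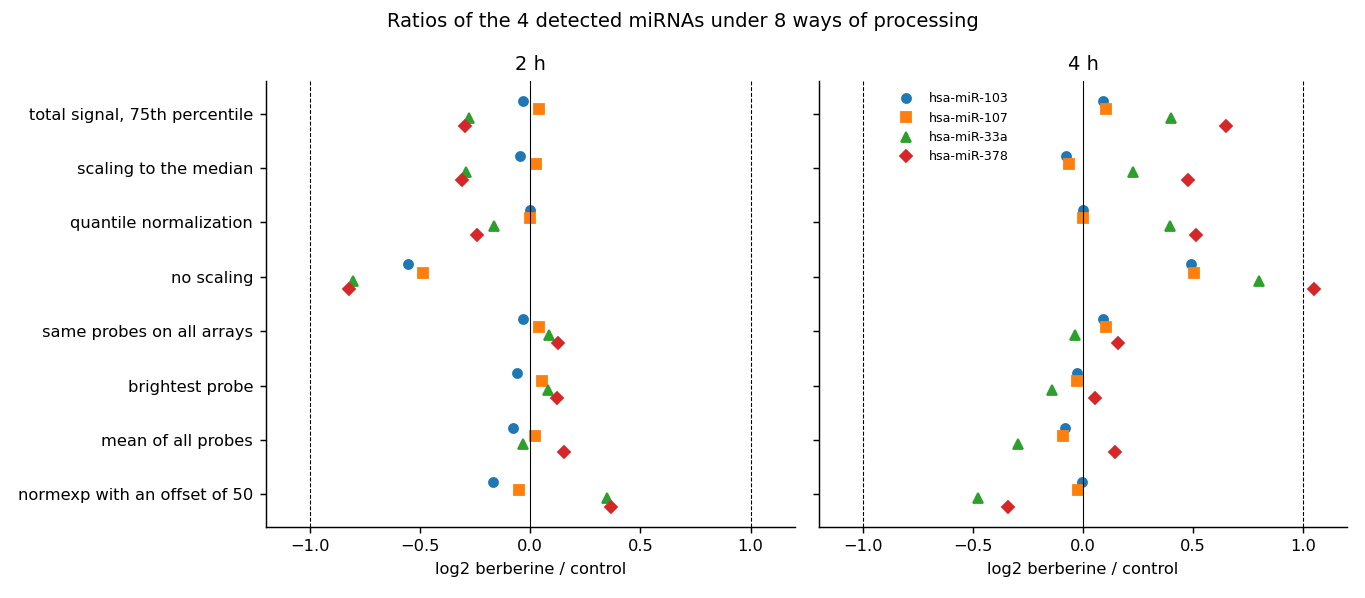
Log2 ratio of berberine to control at 2 h and 4 h for the 4 detected miRNAs under 8 ways of processing the same arrays, with dashed lines at 2-fold. The first line is the total signal scaled to the 75th percentile, where miR-378 lies at 0.65 at 4 h; it lies past 2-fold in the unscaled values only, at 1.05.

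Other miRNAs of hepatic metabolism were taken as a list of 22, which holds, among others, the cholesterol regulators miR-122 and miR-148a and the glucose and lipid regulators miR-29a, miR-34a and miR-27a. All 22 were on the array and 17 were detected on all 4 arrays. These 17 include miR-145, which was also taken above as a fibroblast miRNA. None of the 17 passed 2-fold at either time. Their median was −0.05 at 2 h, from −0.31 for miR-335 to 0.03 for miR-122, and 0.18 at 4 h, from −0.02 for miR-96 to 0.40 for miR-335. At 4 h, 2 of the 17 (11.8%) lay beyond their error, beside 11.5% of all miRNAs: miR-128 at 0.31 (SE 0.16) and miR-27a at 0.38 (SE 0.16). At 2 h none did. Other guide-named miRNAs inside a protein-coding gene on the same strand, of which 243 were on the array, had a median of −0.03 over the 68 with a ratio at 2 h and of 0.15 over the 73 with a ratio at 4 h. Those with no such host, 336 on the array, had medians of −0.02 over 81 and 0.11 over 83. These medians are set side by side as a description, and the lists were not tested against each other.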

How the data were processed

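Total RNA of 4 HepG2 cultures, extracted with TRIZOL, was labelled with Cy3 and hybridised by the authors to Agilent human miRNA arrays. Per the file headers, Agilent Feature Extraction 10.7.3.1 subtracted the background and wrote intensity values per spot, per probe and per miRNA, with their errors and detection flags; these deposited intensities are not normalized between arrays. In every detected miRNA the total equalled the sum of its probes above 3 times their error, within 1%, and undetected miRNAs are written as 0.1. A deposited table of the whole series holds the authors' own ratios of berberine to control and was not used.

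Samples were grouped by the label of treatment and time, with 1 array per group. Signals were set to log2 and each array's 75th percentile, taken over 197 human miRNAs that every array detected, was subtracted. A ratio needed detection on both arrays. Its SE came from the Feature Extraction errors, and 95% intervals are 1.96 SE. The only test was limma 3.58.1 in R 4.3.3 (lmFit and eBayes, treatment and time point), with Benjamini-Hochberg adjustment over the 197 at a threshold of 0.05. It was tried on simulated data with the same change at both times and equal noise for every miRNA. Opposite signs at the 2 times and differing noise were not simulated, so that trial does not show how the fit behaves on these arrays. Python 3.11.15 and pandas 2.3.3 were used besides. Precision is limited by the number of arrays.

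Named were the 5 members, the other arms of their hairpins, array miRNAs with a member's seed, the 3 nearest profiles per member, listed miRNAs past 2-fold, and miR-21*; listed miRNAs at the ends of a range or beyond their error, and the markers, were named besides. Members and lists were chosen with earlier results of these data known. Of 680 guide-named miRNAs, 584 matched RefSeq by name, 248 of them inside a protein-coding gene on the same strand. Scaling, probe summary, background, filter, error and limma settings were varied. For quantile normalization, the brightest probe, the mean of all probes and normexp, the SE was that of the main total signal. The share of all miRNAs beyond it is not given for these.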

Additional observations from a re-analysis of the deposited data

Results flagged for a closer look

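Opposite signs at the 2 times brought up 4 results, each given as the log2 ratio of berberine to control at 4 h minus that at 2 h. The difference was 0.12 (SE 0.22) for miR-103, 0.68 (SE 0.43) for miR-33a, 0.95 (SE 0.39) for miR-378 and 0.76 (SE 0.72) for miR-33b*, the other arm of MIR33B. With 1 array per condition none of these differences was tested. On the probes that passed on all arrays, the difference became −0.12 (SE 0.44) for miR-33a, 0.03 (SE 0.41) for miR-378 and −1.88 (SE 0.86) for miR-33b*, and stayed at 0.12 for miR-103. Opposite signs were found for 67.5% of the 197 miRNAs with a ratio at both times.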

How the results depend on the processing

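Limma called no member in any of its 17 alternatives, but in 12 of them it called no miRNA at all, so those say nothing about the members' stability. Without scaling, the median ratio of the 4 was −0.68 at 2 h. At 4 h 1 member passed 2-fold, and 4 lay beyond their error at each time. Left unscaled, the 197 miRNAs themselves had a median of −0.55 at 2 h and 0.51 at 4 h. These counts thus include array brightness and do not describe the members alone. The matching shares over all miRNAs are not given. With the percentile taken over every human miRNA listed, detected or not, the median ratio of the 4 was 4.95 at 2 h. There, 4 were past 2-fold and 4 beyond their error. Between the control arrays the median of the 4 was 0.31, with 2 beyond. The median of the 197 miRNAs was then itself 5.09 at 2 h, −0.29 at 4 h and 0.42 between the control arrays. In berberine cells at 2 h, 199 of 851 were detected, so that percentile was the 0.1 written for undetected miRNAs. These values therefore do not describe the members. At 4 h, 0 members (against 1) lay beyond their error with median scaling or the same probes on all arrays. Keeping only miRNAs above the median signal also gave 0, but drops miR-33a and miR-378. Quantile normalization, the brightest probe, the mean of all probes and normexp gave 0 by the main SE, not their own, so decide nothing. Between the control arrays, all but the signal filter and normexp gave 0 too. The median at 4 h turned to −0.18 with normexp and an offset of 50, −0.15 with the percentile over every human miRNA, −0.088 with the mean of all probes and −0.027 with the brightest probe, and miR-378 itself at 4 h to −0.34 with normexp. That offset exceeds every mean spot signal of miR-33a and miR-378, so normexp cannot settle the sign of either. By the spread between spots 3 lay beyond at 2 h and 4 at 4 h, as did 56.9% and 67.4% of all miRNAs. The limma ratio changed sign for miR-103 to −0.033 without scaling, −0.062 with median scaling, −0.043 with the brightest probe, −0.081 with the mean of all probes and −0.086 with normexp. For miR-107 it became −0.019 with median scaling, −0.036 with the mean of all probes and −0.035 with normexp. For miR-33a it became −0.0018 without scaling and −0.031, −0.032, −0.16 and −0.064 with median scaling, the brightest probe, the mean of all probes and normexp. With 1 array left out and no time point, it lay between −0.013 and 0.074 for miR-103, 0.050 and 0.096 for miR-107, −0.12 and 0.25 for miR-33a (−0.092 without control cells of 4 h, −0.12 without berberine cells of 4 h), and −0.14 and 0.50 for miR-378 (−0.14 without control cells of 4 h). The cause was not tested, apart from the probes that entered the sums. A bound for miRNAs detected on 1 array of a pair was planned, but the main values were reused. That repeat, 1 of the 17 limma alternatives, tests nothing, and the 4 members detected on all arrays needed no bound. The ratios of the deposited table were planned as an alternative and not run. The time point as a term in limma pairs control with berberine cells of the same time; without it no member was called either, and the 1 call, miR-21*, was lost. Signal over background limits miR-33a, miR-33b and miR-378.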
